A study of Mus musculus with 6 samples.

Results

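The T cell receptor complex and its proximal signalling machinery were examined as a set of 32 genes, listed by their role and matched by exact symbol to the platform annotation. For 31 of them a probe set was found, out of 18193 genes measured in all. The kinase gene Lck had no probe set under its symbol in the annotation used here and was not analysed here. The 31 genes comprise 8 receptor chains and coreceptors, 4 kinases, 9 adaptors and relays, 7 phosphatases and brakes, and 3 activators of Ras.

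RNA came from 6 cultures of C57BL/6 lymph node CD4+CD25- T cells, grown for 2 days on plates coated with 2 µg/ml of anti-CD3 antibody and 1 µg/ml of antibody to CD28. TGF-β1, at 5 ng/ml, and IL-2, at 200 U/ml, steered them towards a regulatory T cell phenotype. On day 1 they were transduced with a retrovirus carrying either E47-ER or the control bHLH-ER, and cells sorted as CD4+Thy1.1+ were restimulated for 6 hours with the same plate-bound antibodies, IL-2 and 1 µM tamoxifen. E47 is an E protein, a basic helix-loop-helix factor made from the Tcf3 gene, and tamoxifen lets proteins fused to the estrogen receptor (ER) domain enter the nucleus. Each of 3 independent experiments gave 1 control and 1 E47 sample, from pools of 3, 3 and 4 mice aged 7, 8 and 9 weeks. Every culture therefore received T cell receptor stimulation and tamoxifen, no sample lacked either, and the contents of the bHLH-ER control construct were not known beyond that name.

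The T cell receptor has no enzyme of its own. Its CD3 chains and the zeta chain carry tyrosine motifs that Src family kinases phosphorylate, after which Zap70 docks and phosphorylates the adaptors Lat and SLP-76. These scaffolds recruit phospholipase C gamma 1, whose product diacylglycerol activates RasGRP exchange factors, and with them Ras, and protein kinase C theta, which feeds the Bcl10 and Malt1 arm towards NF-κB. Phosphatases, ubiquitin ligases and inhibitory adaptors damp the signal. E proteins are known as regulators of T cell receptor component genes during thymocyte development.

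Values are log2 of 1 deposited intensity per gene and array. E47 was compared with control in limma over all 18193 genes, with the experiment as a block (the paired fit), a two-sided test and Benjamini-Hochberg adjustment, and a gene was called at an adjusted p under 0.05. In this fit 1 of the 31 genes rose and 2 fell, that is 9.68%, where 1.14% of all genes were called (0.781% higher and 0.363% lower). The gene that rose was Rasgrp3, and those that fell were Sla and Trat1. Without the block, 1 gene was called, Rasgrp3, where 0.247% of all genes were. At an unadjusted p under 0.05 there were 14 of the 31 (8 higher and 6 lower, 45.2%), against 12% of all genes and 13.4% of genes above the median level, and most of these did not survive adjustment. The median log2 fold change of the 31 genes was 0.01 and that of all genes -0.03. The genes were chosen with earlier results of these data known, so these shares describe the set and do not test it.

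**Figure D1:**
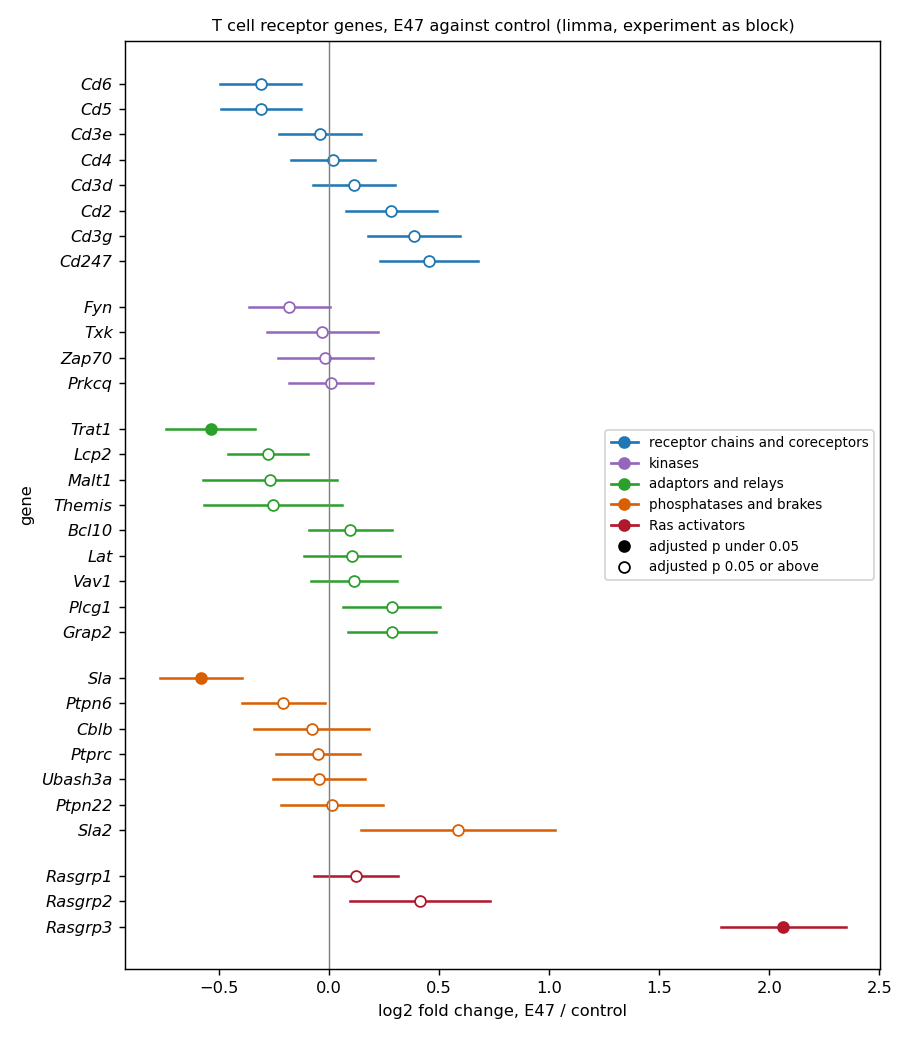
Log2 fold change of E47 over control for the 31 genes (x axis), grouped by role (colour), with 95% confidence intervals from the paired limma fit (6 arrays in 3 pairs). Filled points mark the 3 genes called, Rasgrp3 at 2.06 and Trat1 and Sla near -0.5 to -0.6; the other 28 lie between -0.31 and 0.59.

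Direction within the 3 experiments was counted as a description, beside the same share of all genes. Of the 31 genes, 12 were higher in E47 in every pair (38.7%, against 14.4% of all genes) and 8 were lower in every pair (25.8%, against 19.9%). Those that were higher in every pair included all 3 RasGRP genes and the chains Cd247, Cd3g, Cd3d and Cd2. The arrays of the groups did not overlap for 4 genes that were higher (12.9%, against 4.65% of all genes), namely Rasgrp3, Cd247, Plcg1 and Bcl10. Nor did they overlap for 3 that were lower (9.68%, against 7.13%), namely Sla, Trat1 and Cd6. In the lower direction both shares lay near those of all genes.

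The marker genes were checked first. The arrays showed T cell genes: all 7 markers of the alpha-beta T cell list were measured, with log2 levels from 7.90 to 13.03. Of these, Cd3d, Cd3e, Cd3g, Cd4 and Cd5 are also genes of the set, and none is an alpha or beta chain gene. Of 5 gamma-delta T cell markers listed only Sox13 was measured, at 5.46 to 5.90. The lists therefore could not separate alpha-beta from gamma-delta T cells. Cd4 had 8.21, 7.90 and 8.09 in control and 8.21, 8.00 and 8.04 in the E47 replicates. Of 7 B cell markers measured (8 listed) the summed intensity was 212 to 261 in control and 205 to 236 in E47 samples, and of 8 myeloid markers 248 to 263 and 224 to 244. The 2 CD8 markers, Cd8a and Cd8b1, summed to 140 to 209 in control and 189 to 327 in E47 samples. Both were higher in E47 in every pair, as 14.4% of all genes were. Cd8b1 was higher by 0.51 on the log2 scale, with no overlap of groups (4.65% of all genes). Cd8a was higher by 0.24, though by only 3.89e-04 in experiment 1. The part of such cells in the results was not tested. None of the B cell, myeloid and CD8 markers was called, and none was at 0, since every deposited value was above 0. Thy1, whose Thy1.1 form was used for sorting, was higher in E47 (log2 fold change 0.82, SE 0.09). Its adjusted p was 0.0138 in the paired limma fit and 0.301 without the block. Tcf3, the source of E47, was not called (-0.01, SE 0.08) at the 1 of its 3 probe sets used. Whether these probe sets read the introduced transcripts was not tested. In pooled RNA of this kind, fewer cells of a type and less RNA per cell cannot be told apart.

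The Ras activators held the largest change of the set. Rasgrp3 encodes an exchange factor for Ras and Rap proteins, best known from B cells and blood vessels, that diacylglycerol recruits to membranes. Its log2 levels were 4.98, 4.74 and 3.98 in control and 6.78, 6.78 and 6.33 in the E47 replicates. All 3 E47 arrays lay above all 3 control arrays, and experiment 3 was lowest in each group. The rise was 1.80, 2.05 and 2.35 within the experiments, a mean log2 fold change of 2.06 (SE 0.12, 95% interval 1.78 to 2.35), or 4.18-fold, with an adjusted p of 0.00111 in the paired limma fit and 0.0318 without the block. Rasgrp3 remained called whichever experiment was left out, at an adjusted p of up to 0.0127 (without replicate 3). Its control level lay below the median of all genes, 6.08, and whether it exceeded background was not tested, which leaves the size of the rise uncertain. With 16 added to each intensity before the logarithm it was 1.52. A further Rasgrp3 probe set gave 0.68 (SE 0.11), in the same direction but smaller. With every probe set tested its adjusted p was 0.123 in the paired limma fit, so it was not called. Its levels were 5.35, 4.97 and 5.14 in control and 5.82, 5.85 and 5.82 in E47 samples. It was thus the brighter probe set in control. The one used had the higher mean over all arrays (5.60 against 5.49) only through the E47 samples.

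Because E47 binds E-boxes, the 250 bases before the RefSeq transcript starts of Rasgrp3 were searched for them. Both windows, from GRCm38.p6, are shown 5′ to 3′ on the strand of the gene with each E-box (CANNTG, which reads the same on either strand) in capitals. The first is chr17:75435655-75435904 and the second chr17:75465288-75465537, both on the plus strand.
Rasgrp3 first start: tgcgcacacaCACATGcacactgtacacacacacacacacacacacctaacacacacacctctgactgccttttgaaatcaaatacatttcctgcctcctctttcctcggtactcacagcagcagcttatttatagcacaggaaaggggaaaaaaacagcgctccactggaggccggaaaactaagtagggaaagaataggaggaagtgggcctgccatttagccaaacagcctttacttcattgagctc
Rasgrp3 second start: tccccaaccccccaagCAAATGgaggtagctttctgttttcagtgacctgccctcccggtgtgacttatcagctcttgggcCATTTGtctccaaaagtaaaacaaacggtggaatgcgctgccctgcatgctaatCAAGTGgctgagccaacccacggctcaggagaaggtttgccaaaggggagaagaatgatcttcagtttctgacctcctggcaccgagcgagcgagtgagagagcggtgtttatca
The first window holds 1 E-box, CACATG, starting 240 bases before the transcript start. The second holds 3, which start 234, 169 and 115 bases before it. Neither holds the form CAGGTG, which is CACCTG when read on the other strand, and neither holds the palindrome CAGCTG. A match in letters is a description and does not show binding.

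Rasgrp1 encodes the RasGRP that T cells and thymocytes mainly rely on to activate Ras. Its levels were 9.55, 10.06 and 9.34 in control and 9.71, 10.10 and 9.50 in the E47 replicates, so the groups overlapped, and the difference was 0.12 on the log2 scale (SE 0.08, 95% interval -0.07 to 0.31, adjusted p = 0.580 in limma). At its dimmer probe sets Rasgrp1 differed by 0.35 (SE 0.09), 0.04 and -0.01. Rasgrp2 encodes a calcium-regulated exchange factor for Rap1, known from platelets. Its levels were 5.40, 6.42 and 5.43 in control and 5.65, 7.21 and 5.63 in E47 samples. Experiment 2 was the highest in both groups, and the difference of 0.41 (SE 0.13, adjusted p = 0.306 in limma) came from pair differences of 0.25, 0.80 and 0.20. The remaining Rasgrp2 probe sets gave 0.29, 0.15 and -0.02. Whether Rasgrp3 differed from Rasgrp1 or Rasgrp2 in its response was not tested.

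**Figure D2:**
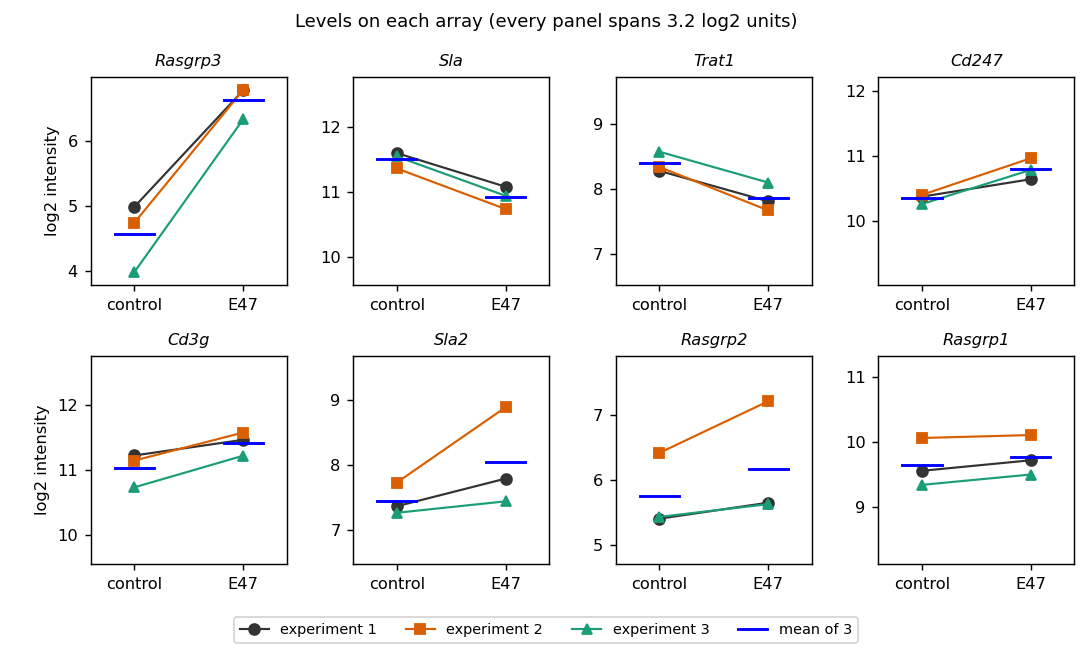
Log2 intensity (y axis) in control and E47 samples for 8 genes, with a line joining the samples of each experiment and blue bars for the mean of 3; every panel spans the same range. Rasgrp3 rises in each pair from 4.57 to 6.63 on average, Sla and Trat1 fall in each pair, and in Sla2 and Rasgrp2 experiment 2 stands above the others.

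Among receptor chains and coreceptors 0 of 8 were called in limma, in either fit. In the paired fit 5 (62.5%) had an unadjusted p under 0.05, 3 higher and 2 lower. Of all genes 1.14% were called in that fit, and 12% had such a p (5.1% higher and 6.9% lower). Cd247, the zeta chain, which carries most of the receptor's tyrosine motifs, had levels of 10.38, 10.41 and 10.27 in control and 10.65, 10.97 and 10.79 in the E47 replicates. The groups did not overlap, and the difference was 0.45 (SE 0.09, 95% interval 0.23 to 0.67, adjusted p = 0.110 in the paired limma fit). Its other probe sets gave 0.54, 0.28 and -0.12, the last of them on the dimmest. Cd3g, the CD3 gamma chain, had 11.23, 11.15 and 10.73 in control and 11.47, 11.58 and 11.22 in E47 samples. Each pair was higher in E47, but control replicate 1 lay just above E47 replicate 3, and the difference of 0.39 (SE 0.09) had an adjusted p of 0.147 in the paired limma fit. Both genes were called when only genes above the median level were tested (adjusted p = 0.0334 and 0.0438).

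The other CD3 chains lay closer to control. Cd3d, the delta chain, had 12.74, 12.67 and 12.57 in control and 12.80, 12.82 and 12.70 in E47 samples, a difference of 0.11 (95% interval -0.07 to 0.30). Cd3e, the epsilon chain, had 9.18, 9.32 and 8.96 in control and 9.18, 9.23 and 8.92 in E47 samples, a difference of -0.04 (95% interval -0.23 to 0.14). The pair differences of Cd3e were 9.21e-04, -0.09 and -0.04, with no shared direction. Whether the chains differed from one another in response was not tested. Cd3g, Cd3d and Cd3e follow each other on chromosome 9 in the RefSeq table of GRCm38.p6.

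The windows of 250 bases before the starts of Cd3g and Cd247 are shown because these chains had the largest differences of the receptor, again with E-boxes in capitals and in GRCm38.p6. They are chr9:44980432-44980681 on the minus strand for Cd3g and chr1:165788431-165788680 on the plus strand for Cd247.
Cd3g: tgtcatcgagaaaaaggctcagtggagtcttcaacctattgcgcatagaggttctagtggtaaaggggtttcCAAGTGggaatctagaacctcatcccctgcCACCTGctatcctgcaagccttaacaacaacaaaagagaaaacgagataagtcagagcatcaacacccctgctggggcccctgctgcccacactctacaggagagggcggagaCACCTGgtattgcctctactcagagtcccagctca
Cd247: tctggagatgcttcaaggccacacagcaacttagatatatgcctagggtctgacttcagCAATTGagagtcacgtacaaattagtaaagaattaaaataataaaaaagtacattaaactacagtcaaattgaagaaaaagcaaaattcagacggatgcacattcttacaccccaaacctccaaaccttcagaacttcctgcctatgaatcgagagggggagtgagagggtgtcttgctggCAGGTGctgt
The Cd3g window holds 3 E-boxes, 2 of them CACCTG, starting 148 and 35 bases before the transcript start. The Cd247 window holds 2, including a CAGGTG that starts 10 bases before it. The Cd3d window holds 1, a CACCTG that starts 112 bases before its start.

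The coreceptors and associated surface receptors moved in either direction by small amounts. Cd4, which binds MHC class II and brings Lck to the receptor, differed by 0.02 (95% interval -0.17 to 0.21). Cd2, an adhesion receptor that lowers the threshold of activation, had 12.26, 12.27 and 12.05 in control and 12.60, 12.64 and 12.18 in E47 samples. The difference was 0.28 (SE 0.09, adjusted p = 0.287 in limma), with E47 replicate 3 inside the range of the control arrays. Cd5 and Cd6 encode related scavenger-type receptors that restrain receptor signalling. Cd5 had 12.39, 11.81 and 12.16 in control and 12.05, 11.51 and 11.87 in E47 samples. Cd6 had 10.56, 10.23 and 10.34 in control and 10.21, 9.93 and 10.05 in E47 samples. Both were lower in every pair, Cd5 by 0.35, 0.29 and 0.29 and Cd6 by 0.35, 0.30 and 0.29, yet neither was called (-0.31 each, SE 0.08, adjusted p = 0.189 and 0.187 in limma).

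None of the 4 kinases was called, and 0 had an unadjusted p under 0.05 in either limma fit. Of all genes 1.14% and 12% did so in the paired fit. Zap70, the kinase that docks on the phosphorylated chains, had 10.17, 9.83 and 10.06 in control and 10.11, 9.98 and 9.92 in the E47 replicates, a difference of -0.02 (95% interval -0.23 to 0.20). Prkcq, which encodes protein kinase C theta, had 10.15, 10.24 and 9.94 in control and 10.22, 10.28 and 9.86 in E47 samples, a difference of 0.01 (95% interval -0.18 to 0.20). In both genes the groups overlapped almost fully. Fyn, a Src family kinase, was lower in each pair by 0.18, 0.19 and 0.17, a difference of -0.18 (SE 0.08, adjusted p = 0.421 in limma), and its second probe set also gave -0.18. Txk, a Tec family kinase, differed by -0.03 (95% interval -0.28 to 0.22) and varied more between experiments than any other kinase of the set.

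Among 9 adaptors and relays 1 fell, Trat1 (11.1%, against 0.363% of all genes). Trat1 encodes the transmembrane adaptor TRIM that associates with the zeta chain. Its levels were 8.27, 8.33 and 8.57 in control and 7.80, 7.66 and 8.09 in the E47 replicates. Every E47 array lay below every control array. The fall was 0.47, 0.67 and 0.47 within the experiments, a log2 fold change of -0.54 (SE 0.08, 95% interval -0.74 to -0.34), with an adjusted p of 0.0487 in the paired limma fit. That is close to the threshold: the adjusted p was 0.415 without the block, 0.0536 after median centring, and 0.0582, 0.332 and 0.206 without replicates 1, 2 and 3. A further Trat1 probe set gave -0.30 (SE 0.08). The 250 bases before the Trat1 start, chr16:48772063-48772312 on the minus strand of GRCm38.p6, are shown as a window with no E-box, and hence no capitals.
Trat1: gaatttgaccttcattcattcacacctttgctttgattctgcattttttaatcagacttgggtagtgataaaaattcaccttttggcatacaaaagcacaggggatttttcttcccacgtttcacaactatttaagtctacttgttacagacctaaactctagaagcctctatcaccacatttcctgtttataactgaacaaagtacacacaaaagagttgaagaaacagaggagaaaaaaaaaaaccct

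The scaffold genes were otherwise within small differences of control. Lat, the membrane scaffold phosphorylated by Zap70, had a difference of 0.10 (95% interval -0.11 to 0.32), with pair differences of 0.22, 0.16 and -0.07. Lcp2, which encodes its partner SLP-76, had 12.21, 11.91 and 12.06 in control and 11.94, 11.63 and 11.77 in E47 samples. It was lower by 0.27, 0.28 and 0.29 in the pairs, but was not called (-0.28, SE 0.08, adjusted p = 0.233 in limma), and its other probe set gave -0.34. Grap2, which encodes Gads, the bridge between Lat and SLP-76, had 7.06, 7.28 and 6.81 in control and 7.25, 7.68 and 7.07 in E47 samples, a difference of 0.29 (SE 0.08, adjusted p = 0.267 in limma) and 0.29 in its other probe set. In both genes the groups overlapped.

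Plcg1, which encodes phospholipase C gamma 1, had 9.60, 9.47 and 9.29 in control and 9.71, 9.89 and 9.62 in E47 samples. The groups were just separate, with a difference of 0.28 (SE 0.09, adjusted p = 0.309 in limma), while its 2 dimmer probe sets gave -0.07 and -0.24. Vav1, a signalling protein that binds SLP-76, differed by 0.11 (SE 0.08) and Themis, a regulator of receptor signalling in thymocytes, by -0.26 (SE 0.13). The Themis difference came mostly from experiment 1, where it was -0.63, against -0.07 in each of the others. Bcl10 differed by 0.10 (SE 0.08). Its partner Malt1, the protease of the NF-κB arm, differed by -0.27 (SE 0.13), with -0.50 and -0.40 in experiments 1 and 2 and 0.09 in experiment 3. No gene of this paragraph was called.

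Among 7 phosphatases and brakes 1 fell, Sla (14.3%, against 0.363% of all genes). Sla encodes the Src-like adaptor SLAP, known for marking the zeta chain for degradation together with Cbl. Its levels were 11.60, 11.37 and 11.55 in control and 11.09, 10.74 and 10.95 in the E47 replicates. Every E47 array lay below every control array. The fall was 0.52, 0.63 and 0.61 within the experiments, a log2 fold change of -0.58 (SE 0.08, 95% interval -0.77 to -0.40), so that E47 samples had 0.668 times the control level, with an adjusted p of 0.0294 in the paired limma fit. The adjusted p was 0.218 without the block, 0.218 without replicate 2 and 0.183 without replicate 3. All of its 4 probe sets were lower in E47, at -0.58, -0.64, -0.27 and -0.20.

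Sla2, which encodes the related adaptor SLAP-2, was higher in each pair. Its levels were 7.36, 7.72 and 7.26 in control and 7.79, 8.88 and 7.44 in E47 samples, with pair differences of 0.43, 1.16 and 0.18. The mean difference of 0.59 (SE 0.18, 95% interval 0.15 to 1.03) was as large as that of Sla but was not called (adjusted p = 0.296 in limma), and the groups overlapped. Its other probe set gave 0.91 (SE 0.25). Whether Sla and Sla2 differed in response was not tested.

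The other brakes were not called. Ptpn6, which encodes the phosphatase SHP-1, was lower in each pair, at -0.14, -0.26 and -0.23, a difference of -0.21 (SE 0.08, adjusted p = 0.372 in limma). Ptprc, the phosphatase CD45, which primes Src family kinases and also restrains them, had 13.55, 13.45 and 13.48 in control and 13.45, 13.36 and 13.51 in E47 samples, a difference of -0.05 (95% interval -0.24 to 0.14). Ptpn22, a phosphatase that acts on Src family kinases and Zap70, differed by 0.01 (95% interval -0.22 to 0.25). Cblb, a ubiquitin ligase that restrains activation, differed by -0.08 (95% interval -0.34 to 0.18) and Ubash3a, a regulator that binds Cbl, by -0.05 (95% interval -0.26 to 0.16).

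The values above come from 1 probe set per gene, and 21 of the 31 genes had more than 1. For Sla and Trat1 the probe sets pointed the same way but differed in size, and the mean over all probe sets of a gene gave -0.42 for both (adjusted p = 0.0730 and 0.0707 in the paired limma fit), so neither was called on it. The same mean for Rasgrp3 was 1.37 and remained called (adjusted p = 0.00157).

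**Figure D3:**
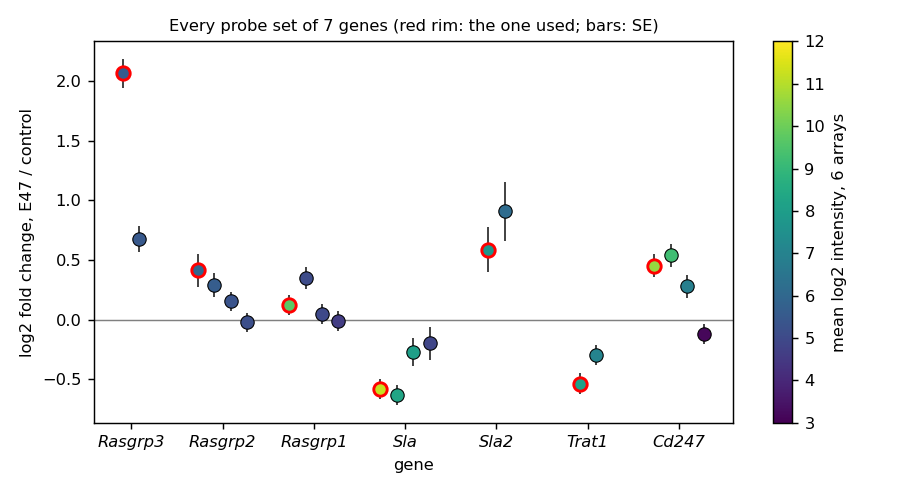
Log2 fold change of E47 over control (y axis) for every probe set of 7 genes (x axis), with bars of 1 SE from the paired limma fit and colour for the mean log2 intensity; a red rim marks the probe set used. Both Rasgrp3 probe sets lie above 0 (2.06 and 0.68), and all 4 of Sla and both of Trat1 lie below it.

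The experiments themselves were compared next, with an F test of the block in the same limma fit, to show how the genes varied between cultures whatever the construct. Of the 31 genes 3 differed between experiments (9.68%, against 3.2% of all genes), and all 3, Txk, Rasgrp2 and Rasgrp1, were highest in experiment 2. Both arrays of experiment 2 lay above the other 4 for 7 genes (22.6%, against 11.1% of all genes), which also included Cblb, Grap2, Prkcq and Cd3e. They lay below the other 4 for 5 genes (16.1%, against 15.6%), namely Cd4, Cd5, Malt1, Ptpn6 and Ptprc.

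Txk had 7.29, 8.27 and 7.00 in control and 7.24, 8.47 and 6.76 in the E47 replicates, so experiment 2 was 1.30 above the mean of the others (adjusted p = 0.00783 in the limma F test). Rasgrp2 was 1.29 above it (adjusted p = 0.0173) and Rasgrp1 0.56 (adjusted p = 0.0383). Without replicate 2 these 3 were not called (adjusted p = 0.661, 0.999 and 0.801 in the limma fit), and neither was any other gene, although 1209 of 18193 then had an unadjusted p under 0.05. Rasgrp1 was also not called without replicate 3 (0.121) or over all of its probe sets (0.264). Some markers of other lymphocytes moved with experiment 2 as well. The summed intensity of 5 NK cell markers measured (6 listed) was 402 and 513 in experiment 2 and 174 to 222 elsewhere, and Klrd1 carried that difference. Klrd1, a receptor chain that activated T cells also make, was at 8.79 and 8.35 against 6.68 to 7.21. Klrd1 differed between experiments (adjusted p = 0.0108 in the limma F test), and the other NK cell markers measured did not. Against the mean of the other experiments, Klre1 was higher in experiment 2 by 0.11 on the log2 scale, while Gzma (-0.08), Klra1 (-0.07) and Ncr1 (-0.07), the NK-defining receptor, went the other way. The 2 CD8 markers summed to 209 and 327 in experiment 2 and to 140 to 192 elsewhere. Cd8a differed between experiments (adjusted p = 0.0289 in the limma F test), with experiment 2 higher by 0.87 than the mean of the others. Cd8b1 did not (adjusted p = 0.293). The 7 B cell markers summed to 236 and 261 in experiment 2 and to 205 to 218 elsewhere. Among them Ms4a1, which encodes CD20, differed between experiments (adjusted p = 0.0491 in the limma F test), with both arrays of experiment 2 above the others. Experiment 2 was 0.68 above the mean of the others in Ms4a1. The same difference was 0.47 in Cd79b, 0.24 in Blnk, 0.21 in Cd79a, 0.16 in Cd22 and 0.04 in Blk. Pax5 went the other way (-0.19). All 7 lay below the median of all genes, 6.08, on every array. The part of these markers in the Txk and RasGRP differences was not tested.

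**Figure D4:**
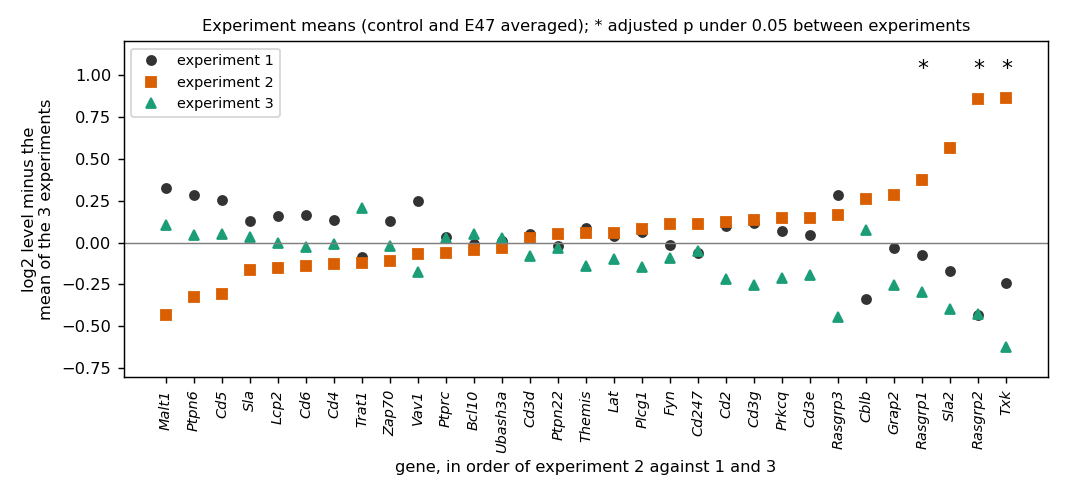
Level of each of the 31 genes in each experiment, control and E47 averaged, relative to the mean of the 3 experiments (y axis, log2), with genes in order of experiment 2 against the others (x axis). Asterisks mark Rasgrp1, Rasgrp2 and Txk, which differed between experiments in the limma F test; experiment 2 stands highest in all 3.

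Other genes of the pathway were read from a list of 94 symbols chosen by role, of which 81 were measured. Of these 4 rose (4.94%) and 0 fell in the paired limma fit, against 0.781% and 0.363% of all genes, and 13 (16%) and 8 (9.88%) were higher and lower at an unadjusted p under 0.05, against 5.1% and 6.9% of all genes. The share of the list that was lower at that p lay near the share of all genes. Without the block 1 rose. The median log2 fold change of the list was 0.03. The list, too, was chosen with earlier results of these data known, so its shares are a description and not a test. By role, 1 of 23 kinases and phosphatases, 2 of 31 adaptors and GTPase regulators, 1 of 15 calcium and NFAT genes and 0 of 12 genes of the CARMA1 arm and ubiquitin ligases rose.

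Sit1, which encodes the transmembrane adaptor SIT that binds phosphatases, had 8.29, 8.18 and 7.77 in control and 9.39, 9.78 and 9.08 in E47 samples, a rise of 1.34 (SE 0.11, adjusted p = 0.00529 in the paired limma fit, 0.0757 without the block). Every E47 array lay above every control array. Rasa3, which encodes a GTPase-activating protein that switches off Ras and Rap, had 7.30, 8.57 and 7.27 in control and 8.40, 9.51 and 8.64 in E47 samples. Control replicate 2 overlapped the E47 arrays, and the rise of 1.14 (SE 0.10) had an adjusted p of 0.00749 in the paired limma fit and 0.685 without the block. Itpr2, an inositol trisphosphate receptor that releases calcium, rose by 1.56 (SE 0.19, adjusted p = 0.0202 in the paired limma fit, 0.0254 without the block), from 7.49 to 7.85 in control to 8.81 to 9.50 in E47 samples. Prkd2, which encodes protein kinase D2, a target of diacylglycerol, rose by 0.66 (SE 0.08, adjusted p = 0.0193, 0.290 without the block). Each of these calls was lost without replicate 3 (adjusted p = 0.0707, 0.0565, 0.145 and 0.147 in the order given), and those of Itpr2 and Prkd2 also without replicate 2 (0.112 and 0.147). Itpr2 was read at 1 of its 6 probe sets and Prkd2 at 1 of its 5, while Sit1 and Rasa3 had 1 each.

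RefSeq promoter windows were found for 26 of the 31 genes, 34 windows in all, and not for Cd2, Cd4, Cd6, Malt1 and Sla. In the 250 bases before the start, 25 of the 34 windows held an E-box (73.5%), against 66.2% of 32851 windows of the whole table. CAGGTG or CACCTG, which count among the E-boxes, were in 10 windows (29.4%, against 17.2%), those of Cd247, Cd3d, Cd3g, Cd5, Plcg1, Ptpn6, Rasgrp1, Vav1 and, for 2 of its 3 windows, Zap70. CAGCTG was in 2 (5.88%, against 13.0%), those of Lcp2 and Sla2. Windows of 1 gene can overlap, and these shares were not tested. The genes with CAGGTG or CACCTG had log2 fold changes from -0.31 (Cd5) to 0.45 (Cd247). None of them was called in the paired limma fit, where 1.14% of all genes were. With so few genes and so low a share, the lack of a call says nothing about the motif.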

How the data were processed

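Each probe set has 1 deposited intensity on each of 6 arrays, on a linear scale. Per the submitters' processing notes the tool was RMA (no version given), which subtracts background, makes array distributions alike and summarises probes. Arrays have no read depth; their medians were 34.3 to 35.4 and the lowest value 4.26, and 3 samples per group limit the precision. Log2 was taken with no pseudocount. Of 45101 probe sets, 34945 had 1 gene symbol in GEO's platform annotation and were no control probe set. Each gene was read at its probe set with the highest mean over 6 arrays, and dim genes were kept.

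The titles gave groups and replicate numbers. limma 3.58.1 in R 4.3.3 (lmFit, eBayes) was fitted over all 18193 genes, with group and experiment as terms and 6.32 total degrees of freedom, and adjusted p-values are Benjamini-Hochberg. The pairing rests on the design text; arrays with the same number deviated together from their group means (r = 0.28, 0.67 and 0.43 over genes). Between unlike numbers r was 0.25 and 0.18 for experiments 1 and 3 and negative for the others, so pair 1 hardly stands apart. Deviations from a group mean cancel within the group, so these r values are tied to one another. The negative ones are thus partly set by the centring. The replicates are pools of mice from separate experiments. On simulated data for E47 against control (18193 genes, noise independent between genes), the fit recovered 90% of log2 changes of 0.5 and 100% of those of 1, with 16 false calls. Each size had 50 changed genes. The noise used gene variances that limma had already drawn towards a common value, so recovery on the arrays may be lower.

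The members and gene lists were chosen with earlier results of these data known. All members are named, with the other pathway genes past the threshold and markers in ranges. Group-by-role labels, the alternatives (block, scaling, pseudocount, dim genes, probe sets, prior variance, each experiment left out) and the motif searches were written down with the design. A planned search of receptor proteins for tyrosine motifs was not run, as protein sequences were not used here.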

Additional observations from a re-analysis of the deposited data

How the results depend on the processing

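Rasgrp3 stayed called in the 11 of 12 alternatives that tested it, at adjusted p from 1.14e-05 (prior variance trend) to 0.0318 (no replicate block). The filter on dim genes removes it. Apart from the mean of all probe sets, these alternatives read Rasgrp3 at the probe set used, which was the brighter only through the E47 samples. They are therefore not independent of that choice. The further Rasgrp3 probe set was not called with every probe set tested (adjusted p = 0.123 in limma). The number of genes of the set that rose, 1, was 2 with genes above the median level only (Cd247 and Cd3g) and 4 with a prior variance trend, and stayed 1 whichever replicate was left out. The number that fell, 2, was 0 with no replicate block, 1 with the replicate block as a random effect, 1 after median centring, 0 with the mean of all probe sets, 0 with every probe set tested and 5 with the trend, and 0 to 1 without a replicate. The trend added Cd3g, Cd247 and Cd2 as higher and Cd5, Cd6 and Lcp2 as lower, so these 6 depend on how the variance was modelled. Of all genes, 142 rose and 66 fell. These became 44 and 1 with no replicate block, 79 and 13 with it as a random effect, 215 and 147 above the median level, 333 and 214 with the trend, and 41 to 208 and 0 to 80 without a replicate. The falls were also 106 with the pseudocount and 15 with every probe set tested. Where a count of falls was 0 in limma, 4 to 6 genes of the set, and 794 of all genes without replicate 3, fell at an unadjusted p under 0.05.

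Between experiments 3 genes of the set and 582 of all genes differed. These became 7 and 993 with the pseudocount, 8 and 1346 above the median level, 1 and 272 with every probe set tested, 17 and 1814 with the trend, and 0 to 6 and 0 to 1032 without a replicate. Of genes that were not called, some turned sign. After quantile normalization these were Cd4 (-0.023), Prkcq (-1.92e-04) and Ptpn22 (-0.0061), and with the mean of all probe sets Plcg1 (from 0.28 to -0.010), Ptprc (0.036), Ubash3a (0.13) and Cblb (0.030). Without a replicate they were Cd4 (-0.025 to 0.053), Zap70 (-0.10 to 0.044), Txk (-0.15 to 0.074), Prkcq (-0.023 to 0.050), Ptpn22 (-0.067 to 0.11), Ubash3a (-0.092 to 0.029) and Cblb (-0.16 to 0.058). Apart from these, each gene kept its direction in the settings that tested it; the filter on dim genes left out Rasgrp2 and Rasgrp3. The cause of these changes was not tested. Dim signal limits Rasgrp3 and Rasgrp2, whose mean levels lie below the median of all genes.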
